A study of Mus musculus with 384 samples.

Results

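Regulatory T (Treg) cells sorted one by one from the ear skin of mice treated with imiquimod were examined here for how they differed from each other. The cells taken were the single-cell wells of the imiquimod treatment in which at least 500 genes had a count and the total reached 10000 counts. This left 82 cells from 2 plates of 87 imiquimod single-cell wells each, which is 47.1% of those wells and 21.4% of all wells of the series. Of the 82, 38 lay on the plate titled IMQ and 44 on the plate titled IMQ1. Imiquimod, an agonist of the Toll-like receptor TLR7 used to model psoriasis in mice, had been put on the ears at 5%, 3 times from day 0, and the cells were sorted on day 3. The labels give 2 imiquimod mice without tying a plate to a mouse, and their strain, age and sort gate are not stated in the labels. Each plate was therefore 1 sample. With 1 sample per plate there was no replicate check, so the values below describe these cells and carry no p-value. A cell is named by its plate and its number in the title, as in cell IMQ1-7.

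Treg cells are the CD4 T cells that carry the transcription factor Foxp3 and restrain immune responses, and those of skin also carry tissue-repair genes under factors such as Gata3. Immediate early genes such as Fos and the phosphatase gene Dusp1 are transcribed within minutes of a signal, without new protein synthesis, and their transcripts are short-lived. Interferons act through receptors and transcription factors on a promoter element called the interferon-stimulated response element, and MHC class I genes such as H2-K1, which display peptides to CD8 T cells, respond to interferon as well. Srgn encodes serglycin, the proteoglycan core of secretory granules.

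The promoters of 6 genes that the results on shared cells turn on are shown first, as the 250 bases before the start in RefSeq's table for GRCm38.p6, matched by symbol. Ifit1, Ifit3, Rsad2 and Isg15 encode interferon-induced antiviral proteins, and capitals mark each match to the core of the interferon-stimulated response element, TTTCNNTTTC, on either strand:
Ifit1 (chr19:34640639-34640888, plus strand): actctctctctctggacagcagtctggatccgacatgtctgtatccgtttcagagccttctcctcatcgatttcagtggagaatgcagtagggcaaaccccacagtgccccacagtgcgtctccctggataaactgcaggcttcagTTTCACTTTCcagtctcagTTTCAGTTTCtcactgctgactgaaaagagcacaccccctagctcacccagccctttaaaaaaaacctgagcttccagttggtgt
Ifit3 (chr19:34583279-34583528, plus strand): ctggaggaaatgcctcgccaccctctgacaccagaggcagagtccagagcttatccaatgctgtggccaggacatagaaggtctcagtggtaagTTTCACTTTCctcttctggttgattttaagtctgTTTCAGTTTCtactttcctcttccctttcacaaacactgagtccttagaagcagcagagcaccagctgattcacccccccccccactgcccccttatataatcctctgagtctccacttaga
Rsad2 (chr12:26456453-26456702, minus strand): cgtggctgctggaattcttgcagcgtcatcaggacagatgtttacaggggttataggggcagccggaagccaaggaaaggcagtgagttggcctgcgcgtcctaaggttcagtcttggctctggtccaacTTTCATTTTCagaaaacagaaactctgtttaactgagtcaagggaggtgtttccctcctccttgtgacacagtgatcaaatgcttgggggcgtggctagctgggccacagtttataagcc
Isg15 (chr4:156200819-156201068, minus strand): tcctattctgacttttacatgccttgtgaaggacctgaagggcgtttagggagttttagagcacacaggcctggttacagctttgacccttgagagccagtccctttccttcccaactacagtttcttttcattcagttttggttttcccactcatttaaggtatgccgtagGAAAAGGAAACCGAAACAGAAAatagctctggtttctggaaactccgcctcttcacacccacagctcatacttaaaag
In Fos and Dusp1, capitals mark the cyclic AMP response element, TGACGTCA, and its shorter form, TGACG, which the longer form contains, on either strand:
Fos (chr12:85473640-85473889, plus strand): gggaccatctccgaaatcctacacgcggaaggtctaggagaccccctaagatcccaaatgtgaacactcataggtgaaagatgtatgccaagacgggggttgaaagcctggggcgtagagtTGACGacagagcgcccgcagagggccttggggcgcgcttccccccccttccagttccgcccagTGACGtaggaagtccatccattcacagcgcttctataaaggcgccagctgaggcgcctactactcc
Dusp1 (chr17:26508473-26508722, minus strand): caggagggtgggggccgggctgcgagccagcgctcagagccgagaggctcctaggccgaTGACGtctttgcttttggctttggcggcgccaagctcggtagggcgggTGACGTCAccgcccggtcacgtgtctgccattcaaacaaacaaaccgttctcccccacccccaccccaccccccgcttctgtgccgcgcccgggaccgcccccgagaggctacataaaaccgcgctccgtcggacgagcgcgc
Ifit1 and Ifit3 held 2 matches each, Rsad2 held 1 and Isg15 held 3 that overlap each other. Over all 32851 promoters of this length in the table, 2.98% held the response element core. Dusp1 held 1 full cyclic AMP element, which 1.55% of the promoters hold, and 1 match to the shorter form outside it, and Fos held 2 matches to the shorter form, which 17.8% hold. A match is a description of these letters only.

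The kept cells of IMQ held 47481 to 5082460 counts (median 1179425) and those of IMQ1 872490 to 5183746 (median 2223276). The median cell had 975 genes with a count on IMQ and 1093 on IMQ1. The filter ran through a dense part of the range, since 4 kept wells lay within 50 genes above it (lowest 501 genes) and 10 wells left out within 50 below it (highest 497). Levels are in CPM, a gene's counts scaled to the same total in every cell, and a cell is said to hold a gene at 10 CPM or more. By that cut the median IMQ1 cell held 415 genes, and the cells of both plates ranged from 91 to 5313. In 3 shallow IMQ cells, IMQ-40, IMQ-86 and IMQ-87, a single count already exceeded 10 CPM. No molecular identifiers are mentioned in the protocol, so copies made by PCR count as several reads, and intervals given here cover counting error only.

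The cells were checked against their label. At least 1 of 22 core Treg genes was held by 74 of the 82 cells and at least 1 of 22 genes of the T cell receptor complex by 75. Foxp3, Il2ra, Ikzf2 or Ctla4 was held by 57. Both lists were empty in 2 cells, IMQ-25 and IMQ-65. Cell IMQ-65 instead held H2-Ab1, a class II MHC gene, at 16305.9 CPM, with Cd74 at 534.474 and Tyrobp at 66.5903 CPM, and cell IMQ1-62 held the fibroblast genes Col1a1 at 10567.6 CPM and Dcn at 6273.35 CPM beside Ikzf2 at 8473.94 CPM.

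Besides IMQ-65, cell IMQ1-18 went against its label. It held a count of 7483 genes, against 2838 in the next cell, and its highest genes were Apoe (8900.9 CPM), the basal keratinocyte keratin Krt14 (5950.14 CPM) and the lipid droplet gene Plin2 (5872.01 CPM). It held 9 of 13 keratinocyte genes, no count of Foxp3, Il2ra, Ikzf2 or Cd3e, and only 3 of the 22 core Treg genes. A second cell, IMQ1-78, mirrored cell IMQ1-25 of its plate. Of the genes at 1000 CPM or more in IMQ1-25 and under 10% of that level in IMQ1-78, 100% had counts in IMQ1-78, at a median of 0.852% of the level. The other cells had counts of a median of 17.3% of these genes. Some of the counts that rest on IMQ1-18 or IMQ1-78 are given below without them too. Without IMQ-65, 1510 genes were shared by both plates in the sense defined below, against 1527 with it. Of the markers, cell IMQ1-18 held Fos at 5246.01 CPM, and cell IMQ1-78 held the highest Foxp3 level of all, 27380 CPM.

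The 6 marker genes were each high in some cells and without a count in others on both plates. Foxp3 was held by 13 of 38 IMQ cells and 12 of 44 IMQ1 cells, 30.5% of all (95% exact interval 20.8 to 41.6%). Where held, its level ran from 12.97 to 13520 CPM on IMQ (median 818.8) and from 28.88 to 27380 CPM on IMQ1 (median 2862). Much of its summed level sat in 1 cell on each plate, 52.5% on IMQ and 47.2% on IMQ1. Both plates thus gave Foxp3 in a minority of cells, with overlapping ranges, and without cell IMQ1-78 the share of all cells was 29.6%.

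Gata3, the transcription factor shared by type 2 and tissue Treg cells, was held by 15 IMQ cells (18.92 to 9815 CPM, median 1534) and 19 IMQ1 cells (26.68 to 4363 CPM, median 1489). It was spread more evenly than Foxp3. Its effective number of cells, the number of equal cells that would give the same concentration of its level, was 16.8, against 6.21 for Foxp3. Fos, a subunit of the AP-1 transcription factor, was held by 12 IMQ cells (18.92 to 58150 CPM, median 4100) and 16 IMQ1 cells (10.84 to 23020 CPM, median 5050). Dusp1, which switches off MAP kinases, was held by 18 IMQ cells (17.52 to 22950 CPM, median 1905) and 22 IMQ1 cells (66.21 to 35210 CPM, median 4760). In both immediate early genes the ranges of the 2 plates overlapped.

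Srgn was held by 20 IMQ cells (226.9 to 67850 CPM, median 2663) and 22 IMQ1 cells (14.47 to 20830 CPM, median 3202). H2-K1 was the marker in most cells, 20 on IMQ (10.98 to 44830 CPM, median 2810) and 30 on IMQ1 (16.05 to 28230 CPM, median 8081), or 52.6% and 68.2% of the plates. Its median over all cells, holders or not, was 27.4 CPM on IMQ and 4567 CPM on IMQ1. Class I genes are near-identical copies of each other, so the counts of H2-K1 may include reads of its neighbours. The 5 empty wells of each plate's number range gave the background. These wells were not free of reads. Those of IMQ held up to 305565 counts (median 2824) and those of IMQ1 up to 711071 (median 169279). Of the 10 wells, 5 reached the 10000 counts of the filter. The highest number of genes in any of them was 395, under the 500 of the filter. No empty well of the series held a count of Foxp3, Gata3 or Dusp1 (0 of 20, which allows a share of up to 15%), and Fos and Srgn reached at most 2 counts there. H2-K1 was the exception, with 25045 counts in 1 empty well of the IMQ range.

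**Figure D1:**
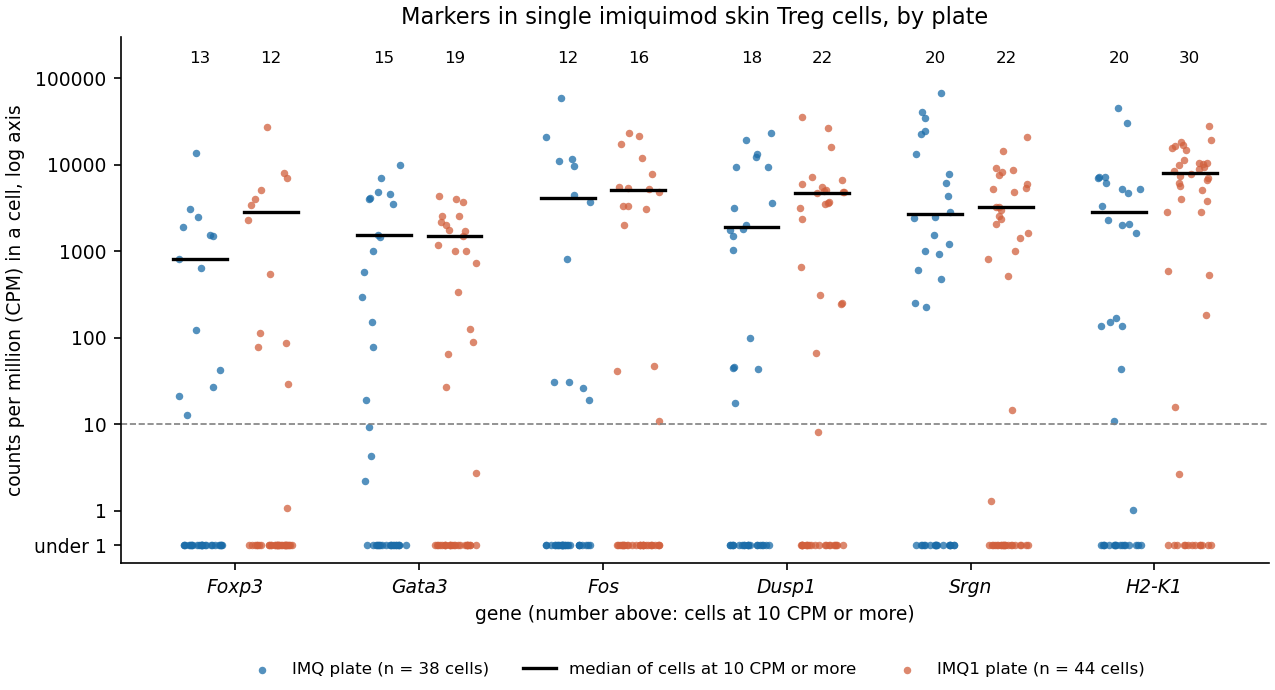
Level of the 6 markers in each kept cell, as CPM on a log axis, with 1 point per cell (IMQ, 38 cells, and IMQ1, 44 cells), the dashed line at 10 CPM, bars at the median of the cells above it and their number on top; cells under 1 CPM lie in the bottom row. Each gene was held by some cells and missing from others on both plates, from 12 cells (Foxp3 on IMQ1, Fos on IMQ) to 30 (H2-K1 on IMQ1).

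The first question was which genes both plates share. In all, 12526 genes were held by at least 1 of the 82 cells, and 4719 of them (37.7%) by exactly 1 cell. Of the 4090 genes held by 3 or more cells of either plate, 1527 (37.3%) were held by 3 or more cells of both. The shared number was 1354 without cell IMQ1-18 and 1516 without IMQ1-78. Only 14 genes were held by at least 50% of the cells of both plates.

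The genes in the largest share of cells of both plates were the nuclear RNA Malat1 (31 of 38 and 43 of 44 cells) and the cytoskeletal actin gene Actb (33 and 34 cells). They were followed by the kinase gene Pim1 (24 and 27), the nuclear lamin gene Lmna (22 and 31), the ribosomal RNA entry Rn18s-rs5 (27 and 24), Dennd4a (20 and 32) and H2-K1. Next came Patl2, Srgn, the intermediate filament gene Vim (21 and 21), the giant scaffold gene Ahnak (18 and 30), B2m, Dusp1, the scaffold gene Iqgap1 (21 and 20) and Crip1 (20 and 20). Patl2 and B2m were not separate in these counts. The counts of Patl2 were within 10% of those of B2m (beta-2 microglobulin) in 39 of the 43 cells that held either gene, and RefSeq places the 2 genes side by side. Of these 15 genes, Actb and Rn18s-rs5 also reached 10 CPM in 4 and 5 of the 5 empty wells with 10000 counts or more, Crip1 in 2 and H2-K1 in 1. Malat1, Pim1, Lmna, Dennd4a, Srgn, Vim, Ahnak, Iqgap1 and Dusp1 did so in none of those 5 wells.

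Even broad genes varied widely in level between the cells that held them. Malat1 ran from 32.48 to 125300 CPM (median 2352 CPM), with 28.5% of its summed level in the shallow cell IMQ-40. Lmna ran from 13.78 to 24900 CPM (median 2657) and Dennd4a from 25.66 to 38710 CPM (median 3738). Actb was the most evenly spread protein-coding gene of the 15, with 8.89% of its level in its top cell and an effective 25.0 cells. Crip1 was the least, with 33.3% in cell IMQ-33 and 6.60 effective cells. For Ahnak, 29.7% came from cell IMQ1-78.

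**Figure D2:**
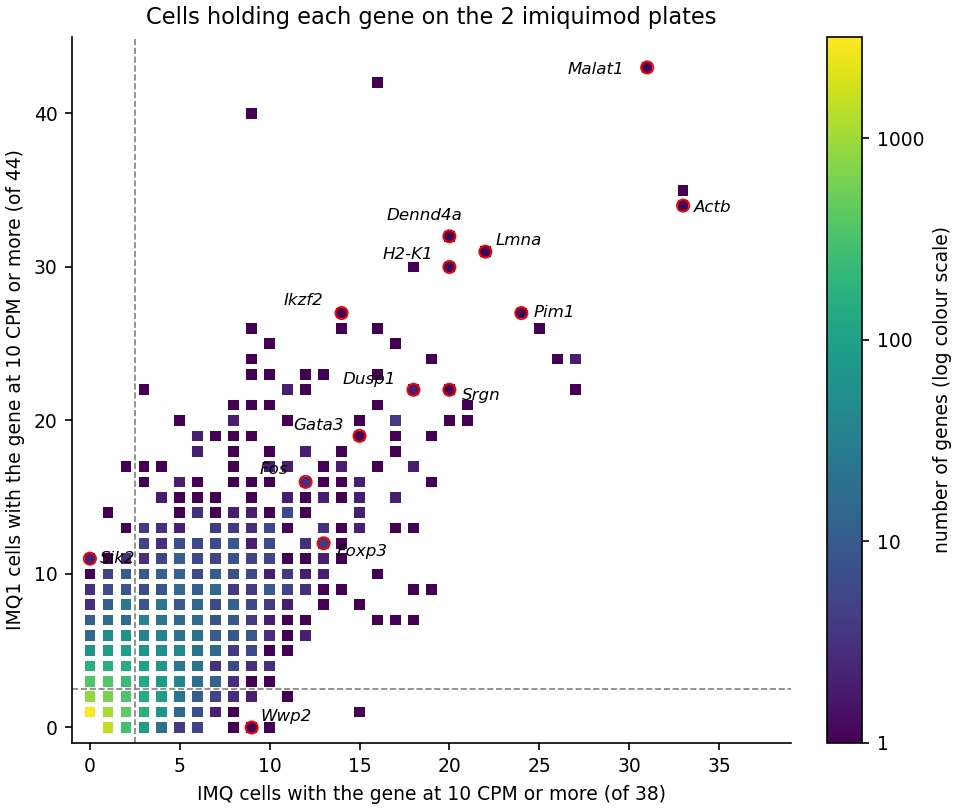
Each square is a pair of cell numbers, IMQ cells (horizontal, of 38) and IMQ1 cells (vertical, of 44) with a gene at 10 CPM or more, coloured by how many genes fall there on a log colour scale; dashed lines mark 3 cells and red circles named genes. Most genes lie in the lower left, and 1527 genes lie above both lines.

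Genes that 1 plate held and the other did not were mostly held by few cells. There were 605 genes in 3 or more IMQ1 cells and no IMQ cell, and fewer the other way round. On IMQ the genes with most cells were Zfp599 (10 cells), Wwp2 (9), Glipr2, Psmg2 and Unkl (6 each). Zfp599 was not absent from IMQ1, where 40 cells had some count of it below 10 CPM, and the IMQ cells held it at a median of 19.01 CPM. Wwp2 matched the counts of the pseudogene Rps26-ps1 beside it within 10% in 7 of 9 cells. On IMQ1 they were Pvt1, a long non-coding RNA next to Myc (11 cells, median 1701 CPM), Sik2, a salt-inducible kinase (11 cells, 178.2 to 13540 CPM), Gatad2a (10), Ccng1 (9) and Usp3 (9). Sik2 and Ccng1 had no count in any of the 38 IMQ cells.

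The plate means differed for most genes. Of 8131 genes with a mean of 10 CPM or more on either plate, 45.9% were at least 4-fold higher on IMQ1 and 25.3% at least 4-fold higher on IMQ. A share near these values is thus the background for any list below. Whether the plate, the mouse or the depth of the cells goes with this cannot be told apart.

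It was also asked which genes rest on 1 or a few cells. Of 7321 genes with a mean of 10 CPM or more over the 82 cells, 5348 (73.1%) had 50% or more of their summed level in a single cell, and 2339 had 90% or more there. An effective 5 cells or more was reached by 590 genes. Among the shared genes with such a mean, 415 of 1476 (28.1%) still rested on 1 cell, and their median effective number of cells was 4.18, against 1.47 for the other genes.

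The genes of highest mean that rested on 1 cell show the scale. Atn1, the gene of atrophin 1, had a mean of 2868 CPM, but cell IMQ-40 held it at 231700 CPM and the next cell at 1940 CPM, so 98.5% of its level was 1 shallow cell. Frmd5 (54.6%) and Irf1, the interferon regulatory factor (70.7%), both had their top in cell IMQ1-17, at 75560 and 77860 CPM, with 23370 and 12420 CPM in the second cell. Cell IMQ-28 carried 87.2% of the helicase gene Eif4a3 and 84.0% of the sialyltransferase gene St3gal1. Cell IMQ-75 carried 76.2% of the actin-binding gene Actn4 and 52.6% of the annexin gene Anxa6. The other 5 were Lyn (60.4%, IMQ-33), Vps54 (66.1%, IMQ-40), Nop14 (58.6%, IMQ-86), Ubr4 (59.3%, IMQ1-15) and Fermt3 (75.2%, IMQ-12). Several of these genes were nevertheless held by cells of both plates, for example Irf1 by 4 and 10 cells and Anxa6 by 11 and 7.

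**Figure D3:**
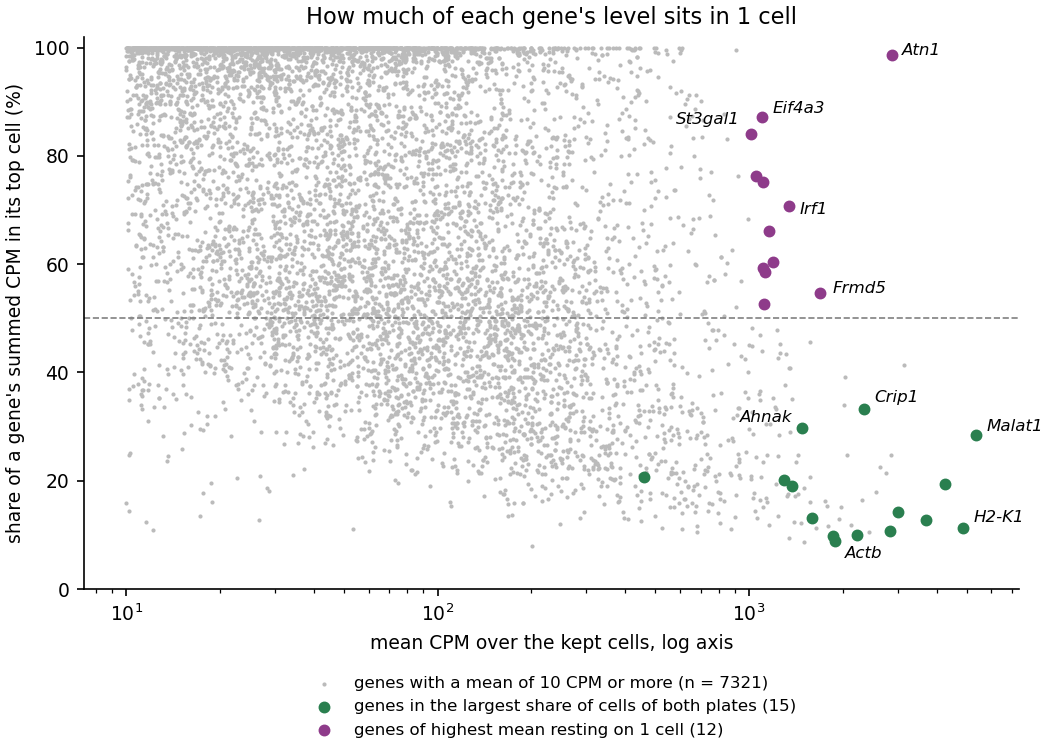
Share of each gene's summed CPM found in its top cell (vertical, %) against its mean CPM over the 82 cells (horizontal, log axis), for 7321 genes, with the 15 broadest genes in green and the 12 genes of highest mean resting on 1 cell in purple. The dashed line is 50%; Atn1 lies at 98.5% and Actb at 8.89%.

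Treg and T cell genes were spread over many cells of both plates. Of the 22 core Treg genes, 21 were held by some cell, and 14 of the 18 in 3 or more cells of either plate were shared, beside 37.3% of all such genes. Of 20 with a mean of 10 CPM or more, 3 rested on 1 cell, beside 73.1%, and 5 did so without cell IMQ-1 or without IMQ1-60. Ikzf2, the gene of Helios, was the broadest, in 14 IMQ and 27 IMQ1 cells (11.64 to 48380 CPM, median 1693). The costimulatory receptor gene Icos was held by 14 and 13 cells, the interleukin-2 receptor chain Il2ra by 9 and 13, the TNF receptor family genes Tnfrsf4 by 11 and 10, Tnfrsf9 by 11 IMQ1 and 10 IMQ cells and Tnfrsf18 by 10 and 10, and the integrin gene Itgae by 6 and 14. Ctla4, the inhibitory receptor, was in 9 and 8 cells and the cytokine gene Il10 in 6 and 9 (30.73 to 8652 CPM). The median cell held 2 core Treg genes on IMQ and 3 on IMQ1, and the highest were 14 in cell IMQ1-53 and 13 in IMQ-14.

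The T cell receptor complex list was alike. Of 19 genes in 3 or more cells of either plate, 18 were shared, beside 37.3% of all such genes, and 2 of 19 rested on 1 cell, beside 73.1%. The 2 became 4 without cell IMQ-46 and 1 without IMQ1-14 or without IMQ1-20. The adaptor gene Skap1 was held by 12 and 16 cells, Cd2 by 13 and 13, Ptprc (CD45) by 12 and 14, the kinase gene Lck by 11 and 8, Cd3e by 8 and 9, and Thy1 by 8 and 8. Cd4 was held by 3 and 5 cells. The receptor beta chain symbol Tcrb was held by 16 IMQ and 7 IMQ1 cells, but had some count in 24 and 29. The symbols Trac, Trbc1 and Trbc2 were listed at 0 in every kept cell, and the constant genes appeared as Tcra and Tcrb.

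Tissue Treg genes were also held on both plates. Of 22 in 3 or more cells of either plate, 15 were shared, beside 37.3% of all such genes, and 10 of 24 with a mean of 10 CPM or more rested on 1 cell, beside 73.1%. Besides Gata3, the broadest were the galectin gene Lgals1 (19 and 9 cells), the nuclear receptor gene Rora (11 and 14), Rgcc (5 and 12), S100a6 (6 and 10), Lgals3 (8 and 6), granzyme B (Gzmb, 8 and 5) and Il1rl1, the interleukin-33 receptor (2 and 11). Il1rl1 ran from 91.57 to 7024 CPM where held. Areg, the gene of the repair factor amphiregulin, was in 6 and 3 cells. Penk, the enkephalin precursor that the series title points to and named here after its values were seen, was held by 4 IMQ cells (11.81 to 52.73 CPM), 3 of which held Foxp3, and by no IMQ1 cell. Of 17 genes of the type 17 and type 1 list, Stat3 was held by 6 and 19 cells and Stat4 by 4 and 6. Il17a had no count in any kept cell, and Il17f, Il23r and Il1r1 stayed below 1 CPM in every cell.

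Immediate early genes were also widespread. Of 29 in 3 or more cells of either plate, 19 were shared, beside 37.3% of all such genes. Of 31 with a mean of 10 CPM or more, 6 rested on 1 cell, beside 73.1%, and 9 of 31 did so without cell IMQ1-18. Junb, another AP-1 subunit, was the broadest, in 17 IMQ and 25 IMQ1 cells (10.81 to 20540 CPM, median 1899), ahead of Dusp1 and Fos. The zinc finger gene Klf6 was in 8 and 20 cells, the growth arrest gene Btg1 in 11 and 14, the RNA decay gene Zfp36 in 9 and 14, the orphan receptor genes Nr4a1 in 9 and 11 and Nr4a3 in 8 and 12, and the activation marker Cd69 in 10 and 9. Zfp36 shared its counts within 10% with its neighbour Paf1 in 21 of 26 cells, so reads of the 2 cannot be told apart. The median cell held 3.5 genes of the list on IMQ and 5 on IMQ1, and 10 of the 82 cells held none.

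Genes of NF-kB and its inhibitors, and of chaperones, were held on both plates. Nfkbia, the inhibitor that NF-kB itself induces, was held by 17 and 20 cells (56.77 to 20690 CPM, median 3282), Tnfaip3 (A20) by 9 and 16, Nfkb1 by 8 and 14, Nfkbid by 7 and 11 and Rel by 6 and 11. Of the 16 genes 12 were shared (10 without cell IMQ1-18) and 5 rested on 1 cell, beside 37.3% and 73.1% of all genes. Among 15 heat shock genes, the constitutive chaperone Hspa8 was in 17 and 15 cells and Hsp90ab1 in 8 and 11, and all 8 genes in 3 or more cells of either plate were shared (7 shared without IMQ1-18).

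The interferon response genes in most cells were Ly6e and Ly6a. Of 75 genes present in the file, 69 were held by some cell. Of the 32 in 3 or more cells of either plate, 9 were shared, a lower share than the 37.3% of all such genes. Without cell IMQ-4 the 9 became 7. Of 54 with a mean of 10 CPM or more, 33 rested on 1 cell, beside 73.1%, so they did not rest on 1 cell more often than genes at large. Of 57 compared between plates, 38 were at least 4-fold higher on IMQ1 and 5 on IMQ, beside 45.9% and 25.3% of all genes. The 38 became 33 without cell IMQ1-7 and 33 without IMQ1-28, and the 5 became 3 without IMQ-3. The 9 shared genes included the surface protein genes Ly6e (17 and 19 cells, 70.48 to 31210 CPM) and Ly6a (11 and 9), Irf1, the nucleotide hydrolase gene Samhd1 (6 and 8) and Ifi27l2a (3 and 8). Ly6a had the same counts as the neighbouring entry Gm28068 in all 20 cells. Igtp, an interferon-induced GTPase gene, was in 2 and 10 cells and Gbp4 in 2 and 8.

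The antiviral genes of the list lay in few cells, as many genes at large did. Of all 12526 genes held by some cell, 4719 were in exactly 1 cell and 2316 in 2 cells. Cell IMQ1-7 held 37 of the interferon genes and cell IMQ1-28 held 28, followed by IMQ1-47 with 17, IMQ1-60 with 16 and IMQ1-18 with 15, and no IMQ cell held more than 10. This was not the order of genes per cell, since IMQ1-7 and IMQ1-28 held 831 and 687 genes of all kinds and IMQ1-18 held 5313. After thinning each cell to 40000 counts the first 2 cells still showed 35 and 27 interferon genes. Together they held 47 of the 69 genes, 18 of them in both cells, and 18.4% of the summed level of the list over all 82 cells. Of all 12526 genes, IMQ1-7 held 831 and IMQ1-28 held 687.

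Rsad2, Usp18, Cmpk2 and Phf11b were held by these 2 cells and no other. Of all 12526 genes, 2316 were held by any 2 cells, and how many of those by this same pair was not counted. Cmpk2 was just over the cut in IMQ1-7, at 11.8 CPM, against 2286 CPM in IMQ1-28. Rsad2 (viperin) stood at 3600 CPM in IMQ1-7 and 893.2 CPM in IMQ1-28, and Usp18, a brake on interferon receptor signalling, at 2486 and 3799 CPM. Ifit3 stood at 10740 and 10570 CPM, and its only other holders were IMQ1-47 at 5733 CPM and 1 further cell. Ifit1 stood at 2427 and 8128 CPM, with 1 other holder. Isg15, whose promoter has 3 overlapping matches above, stood at 76.28 and 427.3 CPM, with its highest level of 1259 CPM in cell IMQ1-80. Reads of Ifit3 and its copy Ifit3b may have been split by the counting. Other members differed between the 2 cells, as Mx2 and Oas3 were at 3540 and 3000 CPM in IMQ1-7 and had no count in IMQ1-28, while Ifih1 was at 4702 CPM in IMQ1-28 and 4.718 CPM in IMQ1-7.

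The interferon-rich cells were not alike in Treg markers. Cell IMQ1-28 held Foxp3 at 4003.07 CPM and Gata3 at 1990.14 CPM. Cell IMQ1-7 had no Foxp3 count but 6 core Treg genes and 5 T cell receptor genes. Neither held Fos or Srgn, Dusp1 was at 8.25681 CPM in IMQ1-7 and at 0 in IMQ1-28, and H2-K1 stood at 11264.6 and 2866.73 CPM. Both held 13 of 23 MHC class I genes, the highest number in any cell. Of 6 endothelial genes 1 was held by IMQ1-28 and 1 by IMQ1-47, with summed levels of 4023.69 and 4780.7 CPM, while IMQ1-7 and IMQ1-60 were at 0 and the highest cell, IMQ1-48, at 6390.81 CPM. Their part in the result was not tested. By the rule of 5 or more interferon genes, 24 cells counted as rich, 11 of 38 on IMQ and 13 of 44 on IMQ1. The richest 5 cells were all on IMQ1.

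MHC class I genes were mostly shared, 16 of 20 in 3 or more cells of either plate, beside 37.3% of all such genes, and 6 of 22 rested on 1 cell, beside 73.1%. Without cell IMQ1-18, 15 were shared and 7 rested on 1 cell. After H2-K1 came B2m (18 and 22 cells), H2-D1 (19 and 19 cells, 16.92 to 21060 CPM, median 5013), H2-Q7 (7 and 13), the peptide transporter gene Tap2 (7 and 9), H2-Q6 (6 and 9), H2-T23 (7 and 8) and Nlrc5, the activator of class I genes (7 and 8). H2-T23 matched the neighbouring entry A930015D03Rik within 10% in 15 of 18 cells. The median cell held 3 genes of the list on both plates.

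Immediate early genes peaked in cells other than IMQ1-7 and IMQ1-28, which held 7 and 4 of them. The rich cells of the 2 lists still overlapped. Cell IMQ1-18 was among the first 5 for both, and IMQ-67 held 11 immediate early and 10 interferon genes. Cell IMQ1-21 held 21 of the 37 immediate early genes at a summed 93747.1 CPM, and 7 interferon genes. Its levels were 23016.1 CPM for Fos, 15892.5 CPM for Dusp1, 112.279 CPM for Foxp3 and 1747.42 CPM for Gata3. It stood next to IMQ1-18, the cell with keratin genes, which held 26 and had 5313 genes at 10 CPM or more to draw from. They were followed by IMQ1-45 (15 genes, no Fos count, Foxp3 at 6972.71 CPM) and IMQ1-87 (14 genes, no Foxp3). On IMQ the highest was IMQ-45 with 12. In all, 23 cells held 8 or more, 11 on IMQ and 12 on IMQ1.

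**Figure D4:**
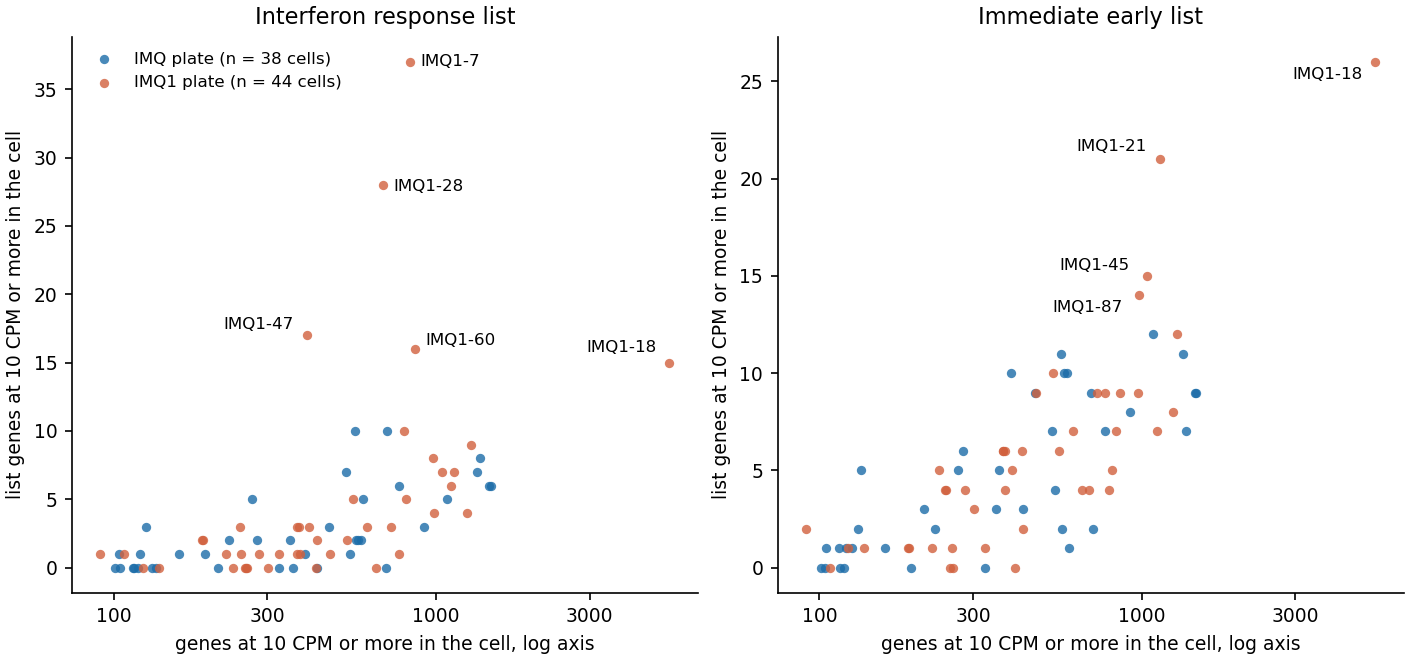
Number of interferon response genes (left) and immediate early genes (right) at 10 CPM or more in each of the 82 cells, against all genes at 10 CPM or more in the cell (log axis), coloured by plate. Cells IMQ1-7 (37) and IMQ1-28 (28) lie far above cells of the same yield on the left. On the right the number climbs with yield up to IMQ1-18 (26), and IMQ1-21 (21) lies above cells of like yield.

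Cell cycle genes rested on 1 cell about as often as genes at large. Of 22 genes, 5 of the 12 in 3 or more cells of either plate were shared, near the 37.3% of all such genes, and 11 of 15 with a mean of 10 CPM or more rested on 1 cell, near the 73.1% of all genes. Of 16 compared, 11 were at least 4-fold higher on IMQ, beside 25.3%, and without cell IMQ-14 the number was 7 of 12. Without that cell 3 genes were shared and 7 of 11 rested on 1 cell, and without IMQ1-18 4 genes were shared. Tubb5, a tubulin gene, was held by 13 and 12 cells, Hmgb2 by 4 and 5 and the helicase subunit Mcm7 by 3 and 4. Mki67 and Cdk1, genes of dividing cells, were held by 3 cells each and stood highest in IMQ-14, at 1053 and 1017 CPM. That cell held 14 genes of the list together with 13 core Treg, 13 tissue Treg and 12 T cell receptor genes, with Foxp3 at 42.272 CPM. Cells IMQ-21 and IMQ-4 held 11 and 6, and IMQ1-18 held 18.

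Markers of other cell types were held by few cells, apart from haemoglobin and class II genes. The haemoglobin gene Hba-a1 was held by 16 and 17 cells (12.52 to 33370 CPM, median 320.5 CPM where held), and 1 of the 10 empty wells of these plates held 3194 counts of it. Cd74, the class II chaperone gene, was held by 9 and 6 cells and the pigment gene Pmel by 5 and 5. Of 13 keratinocyte genes no more than 2 were held by any cell but IMQ1-18, and Krt1 and Krt15 had no count even there. Nkg7, of cytotoxic cells, was held by 3 IMQ cells. Of the 6 genes of naive and recirculating T cells in 3 or more cells of either plate 3 were shared, beside 37.3% of all such genes, and 55 of the 82 cells held none. Summed levels of the other lists ranged from 0 to 16932.7 CPM for fibroblast genes, to 16908.7 CPM for macrophage and dendritic genes and to 843.434 CPM for mast cell genes. The part of these genes in the results was not tested.

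The last question was which genes occurred in the same cells. For each pair, the number of cells holding both was set beside the number that independence would give within each plate. Because a cell that held more genes held more of everything, the same was done after splitting each plate at its median number of genes held, which is called a match for yield here. A single split matches yield only in part. The upper part of IMQ1 still ran from above its median of 415 genes held up to 5313. Over all 1540 pairs of the 56 list genes held by 15% or more of the cells of both plates, 67.4% exceeded independence on both plates. When matched for yield this became 42.7%, and 12.9% were below it on both. These are the backgrounds for what follows.

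Among the 15 pairs of markers, 10 exceeded independence on both plates and 5 did so when matched for yield, near the backgrounds of 67.4% and 42.7%. Fos and Dusp1 were the pair furthest above. They shared 9 IMQ cells, where 6.74 were given by independence when matched for yield, and 12 IMQ1 cells against 9.27, a ratio of 1.31 over both plates. Of the 28 Fos cells, 21 held Dusp1. Srgn exceeded independence on both plates with Fos (19 cells against 15.3), Dusp1 (25 against 23.3), H2-K1 (32 against 28.3) and Foxp3 (16 against 14.0). Foxp3 and Fos shared 9 cells against 9.36, Foxp3 and Dusp1 12 against 14.8, and Foxp3 and Gata3 13 against 11.8, with 5 against 5.79 on IMQ and 8 against 6.00 on IMQ1. None of these 3 pairs with Foxp3 exceeded independence on both plates.

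All 6 markers were held by 4 cells (IMQ-67, IMQ-74, IMQ1-21 and IMQ1-67) and none of them by 9.

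By lists, core Treg genes were often together. Of the 66 pairs of 12 core Treg genes, 48 (72.7%) exceeded independence on both plates when matched for yield and 2 were below it, beside 42.7% and 12.9% of all pairs. The number was 48 without cell IMQ1-18 as well as without IMQ1-78. Il2ra and Tnfrsf9 shared 13 cells against 7.30, Icos and Tnfrsf9 15 against 10.1 and Tnfrsf4 and Tnfrsf9 13 against 8.08. Among immediate early genes 33 of 55 pairs (60.0%) exceeded it, and between them and NF-kB genes 31 of 55. Nr4a1 and Zfp36 shared 13 cells against 7.93. Core Treg genes with the 3 interferon genes broad enough to enter, Samhd1, Ly6a and Ly6e, exceeded it in 24 of 36 pairs, and in 27 without IMQ1-18.

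Immediate early genes exceeded independence in fewer of their pairs with MHC class I and T cell receptor genes. With MHC class I genes 23 of 99 pairs (23.2%) exceeded independence and 18 were below it, and with T cell receptor genes 28 of 110 (25.5%) and 25. Such shares were not particular to immediate early genes. T cell receptor genes with each other reached 13 of 45 pairs (28.9%), and heat shock with MHC class I genes 3 of 18 (16.7%). T cell receptor with MHC class I genes reached 43 of 90 (47.8%). Fos and H2-Q7 shared 4 cells against 7.89. Of all 1540 pairs the largest excess was Foxp3 with Thy1, in 13 cells against 5.99 (8 against 3.26 on IMQ and 5 against 2.73 on IMQ1), and the second Ly6e with H2-D1, in 30 cells against 23.7. The largest deficit was Foxp3 with H2-Q7, in 3 cells against 6.97. These pairs were picked as extremes.

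**Figure D5:**
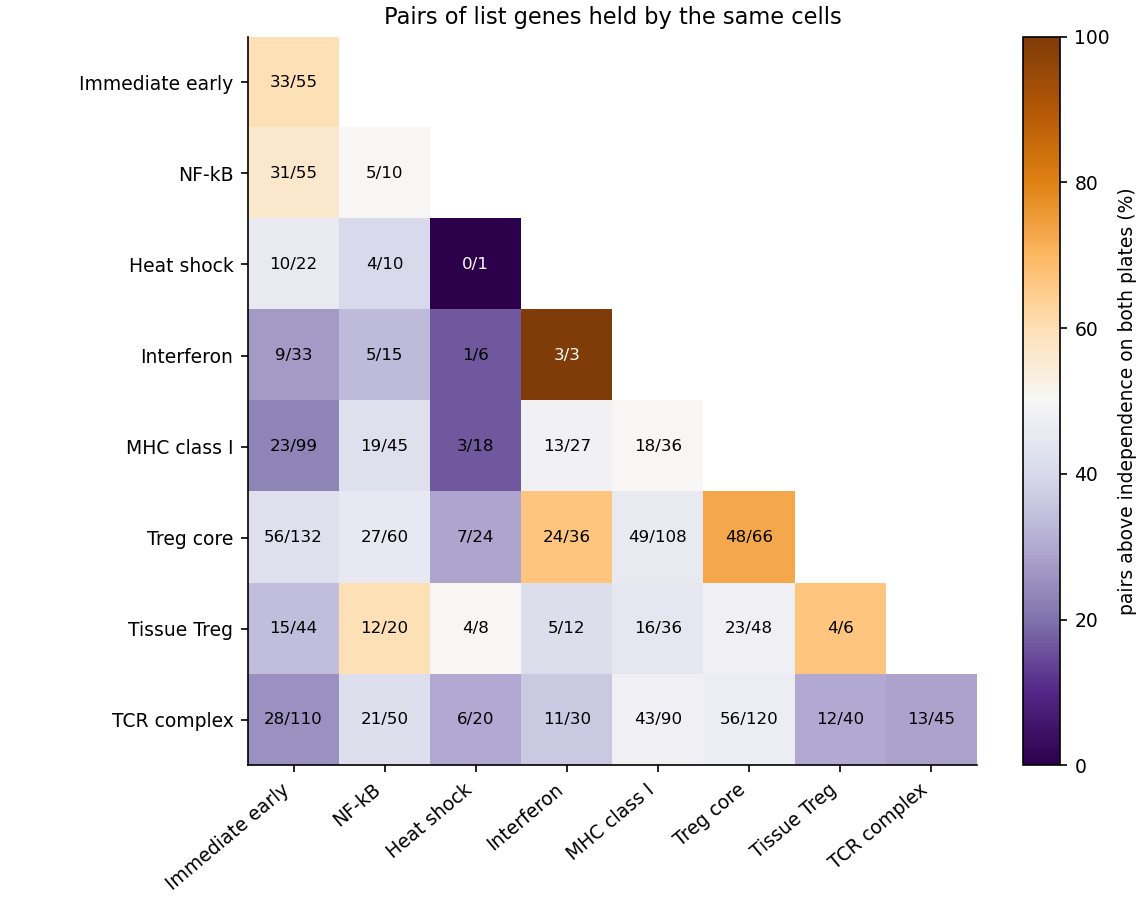
For each pair of lists, the number of gene pairs that the same cells held more often than under independence on both plates, matched for genes per cell, over the number of pairs compared, with colour for the percentage. Core Treg genes with each other (48 of 66) and immediate early genes with MHC class I genes (23 of 99) lie on opposite sides of the 42.7% over all pairs.

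Counted per cell, the lists tracked the yield. The number of genes of each of 9 lists had a Spearman correlation of 0.587 to 0.830 with genes per cell on the 2 plates (38 and 44 cells), and the 36 pairs of lists correlated at 0.375 to 0.805. With genes per cell taken out by ranks, the range was -0.21 to 0.53, and 16 of 36 pairs had opposite signs on the plates. Above 0.2 on both plates were 3 pairs. They were NF-kB with tissue Treg genes (0.226 on IMQ and 0.308 on IMQ1), core Treg with tissue Treg genes (0.241 and 0.224) and immediate early with NF-kB genes (0.325 and 0.204). After thinning each cell to 40000 counts, core Treg with tissue Treg genes stood at 0.272 and 0.129, and NF-kB with heat shock genes at 0.209 and 0.213, so which pairs pass 0.2 depends on depth. Interferon with MHC class I genes stood at 0.0794 and 0.485, and immediate early with interferon genes at 0.0226 and -0.0191. The points share library and depth, so these are descriptions.

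For each marker, the genes of most similar level over cells were sought among all genes held by 20% or more of the cells of both plates, by the smaller of the plates' Spearman correlations. For Fos this gave Dusp1 (0.465 on IMQ and 0.426 on IMQ1), then Sat1, Atp2b1, Paf1 and Zfp36, the last pair with matching counts in most cells. For Dusp1 it gave the elongation factor gene Eef1a1 (0.566 and 0.486), Fos, the adhesion receptor Cd44 (0.416 and 0.405), Hnrnpk and Cd69. H2-K1 was closest to H2-D1 (0.693 and 0.500, and 0.515 and 0.461 with yield taken out), followed by Tpm3, Rad9a, Oaz1 and Dazap2. Srgn was closest to Pim1 (0.353 and 0.382) and Nfkbia (0.372 and 0.286), then Tuba1a, H2-D1 and Ly6e. Gata3 was closest to the ferritin gene Ftl1 (0.464 and 0.485), Ppp1ca, H3f3b, Ppia and Ube2h. Foxp3 was closest to the calcium pump gene Atp2b1 (0.417 and 0.322), Ahnak (0.316 and 0.426), Rn18s-rs5, Eef2 and Coro1a. For Foxp3 with Ahnak, both were highest in cell IMQ1-78.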

How the data were processed

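Single Treg cells of mouse ear skin were sequenced on plates, and the authors deposited read counts per gene and well in 1 matrix of 384 wells and 50556 gene symbols. The submitters' processing notes list mm39 as the build and, among tools, STAR 2.7.3a, Trimmomatic 0.39 and SAMtools 1.12. How reads were counted, on which annotation and whether by strand, is not given in the sources used here. Per the labels' protocols, reverse transcription used oligo dT and a template switch, and PCR followed before and after tagmentation. Genes that overlap or are near-identical copies are uncertain where counting could split or repeat their reads. Wells were assigned to plates by title, and empty wells only by the range of their library numbers. Separate plates are the only replicates.

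From the deposited counts, CPM was computed per cell, and cells weigh equally in every mean. The cuts were 10 CPM for a held gene, 3 cells per plate for a shared gene, 50% for resting on 1 cell and 4-fold between plates. Exact binomial intervals were Clopper-Pearson at 95%. Thinning drew 40000 counts per cell with seed 1. No doublet caller was run, and no comparison was tested. Scripts used Python 3.11.15 with numpy 2.4.6, pandas 2.3.3, scipy 1.17.1 and matplotlib 3.10.9. The calculations for single-cell genes and for pairs were tested on simulated data.

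The members, the 21 gene lists (369 entries, 367 in the file, 10 of the lists for other cell types) and the cuts were chosen with earlier results of these data known. Named genes were the 6 markers, the 15 genes with the largest smaller-of-the-plates share of cells, 5 genes per plate with most cells there and none on the other, the 12 genes of highest mean among those resting on 1 cell, up to 8 members per list with most cells and 5 partners per marker. Ribosomal protein, mitochondrial and uncharacterised genes, pseudogenes and variable receptor segments were left out of the gene-wide choices. Genes named for the antiviral, type 17 and other-cell passages beyond the first 8, Penk among them, were chosen after their values were seen. Alternatives were a cut of 1 count or of 100 CPM, thinning, cells of 1000 genes or more, cells with a T cell receptor or CD3 count, either plate alone, and, chosen after seeing the data, leaving out single wells. A few genes chosen this way are left out of the text.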

Additional observations from a re-analysis of the deposited data

Results flagged for a closer look

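Of the 92 imiquimod single-cell wells left out, 13 lacked the counts and 79 lacked only the genes, and some of them still showed the markers while the 10 empty wells of the same plates did not, or in 1 well only. A Foxp3 count was present in 3.26% of the wells left out (3 of 92, with a median of 3448 counts) and in none of the empty wells. Gata3 was present in 10.9% (median 629.5 counts) and Dusp1 in 5.43% (median 42 counts), again with none in the empty wells. Srgn was present in 18.5% (median 6782 counts), with at most 2 counts in 1 empty well. H2-K1 was present in 21.7%, at a median of 3.5 counts, below the 25045 counts of 1 empty well. Fos was present in 9.78% (median 64 counts), no more often than in the empty wells, where it was in 10% (1 of 10, with 1 count). Shares as small as those of Foxp3 and Dusp1 could go unseen among only 10 empty wells.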

How the results depend on the processing

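The count of genes shared by both plates moved with the cut, to 4052 at 1 count, 978 at 100 CPM and 820 with 10% of the cells of each plate required. Shares of cells moved with the cut and with yield. At 1 count or more they were 46.3% for Gata3, 51.2% for Dusp1 and 53.7% for Srgn, and at 100 CPM 22.0% for Foxp3, 35.4% for Gata3, 25.6% for Fos and 41.5% for Dusp1. Among cells of 1000 genes or more they were 36.2% for Foxp3, 53.2% for Gata3, 44.7% for Fos, 70.2% for Dusp1, 63.8% for Srgn and 78.7% for H2-K1. Among cells with a T cell receptor or CD3 count they were 45.1% for Gata3, 52.1% for Dusp1 and 56.3% for Srgn. Of the medians of list genes per cell, immediate early genes gave 6 at 1 count and 7 in cells of 1000 genes, interferon genes 3, 1 at 100 CPM and 4, MHC class I genes 5, 2.5 and 5, core Treg genes 4, 2 and 4, and tissue Treg genes 4 in cells of 1000 genes. Leaving out either plate gave 11 to 13 cells of 5 or more interferon genes, 11 to 12 of 8 or more immediate early genes and 2 to 3 core Treg genes per cell. A result was counted as moved only past a margin, so smaller shifts are not in the following counts. Thinning to 40000 counts moved 1 of 31 results, the ratio for Dusp1 with H2-K1, to 1.30. Leaving out the mirroring well moved 1, and leaving out the well of most genes moved none. Values still shifted without the well of most genes, where the shared genes fell from 1527 to 1354. Fos with Dusp1 stayed above independence within plates at every setting, from 1.22 in cells of 1000 genes or more to 1.90 at 100 CPM. Foxp3 with Dusp1, at 0.987, lay at 0.921 in cells of 1000 genes or more, 1.09 at 100 CPM and 1.02 without the well that mirrors another, so its side of 1 depends on these settings. No paired analysis was possible because no result comes from a test and the plates were not compared in pairs. Depth limits what a missing gene means, since the median kept cell had 975 to 1093 genes with a count.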
